A study of Homo sapiens with 13 samples.

Results

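The siCTCF library was set directly against the siRAD21 library, 2 of the 13 RNA-seq libraries of the series, to describe which genes separate loss of the insulator protein CTCF from loss of cohesin. Both came from LNCaP-abl, a prostate cancer line derived from LNCaP by long culture without androgen and maintained here in phenol-red-free medium with charcoal-stripped serum. Cells at passages 53-60 received an siRNA pool against CTCF (siCTCF) or RAD21 (siRAD21), and RNA was taken 72 h after transfection. The other 11 libraries had the same medium and time and received control siRNA (siControl2) or siRNA against BRCA1, BRCA2, EED, EZH2, FOXA1, FOXM1, KDM1A, MALAT1, PCAT1 or SMARCA4. They serve only to show which library of the pair lay apart for a gene. Each condition had 1 library. No difference below therefore has a replicate check or a p-value, and "2-fold apart" describes these 2 libraries only.

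CTCF is a zinc finger protein that binds a long DNA motif at insulators and domain borders. Cohesin is a ring of SMC1A, SMC3, RAD21 and STAG1 or STAG2. It extrudes chromatin loops, and CTCF bound to its motif stops the extrusion, so that many loops are anchored at paired CTCF sites. Cohesin also holds sister chromatids together from replication until anaphase and takes part in DNA repair. Loss of either protein is known to weaken loop anchors in many cell types.

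Values were FPKM, a read density per length of transcript and per mapped fragment, and differences are siCTCF minus siRAD21 on the log2(FPKM + 1) scale, which understates the change of low genes. The comparison covered 15780 genes with a mean of at least 0.5 FPKM over the 13 libraries. Sequencing depth is unknown. The labelled cell type was checked first. The luminal markers KRT8, KRT18 and EPCAM were at 131, 164 and 44.4 FPKM in siCTCF and at 167, 153 and 41.4 FPKM in siRAD21. KLK3, the androgen-induced gene for prostate-specific antigen, was nearly absent, at 0.153 FPKM in siCTCF and 0.202 FPKM in siRAD21. The basal keratin gene KRT14 was at 0.00903 FPKM in siCTCF and listed at 0 in siRAD21.

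CTCF stood at 3.72 FPKM in siCTCF and 26.9 FPKM in siRAD21, against 15.7 to 22.2 FPKM (median 19.3) in the other 11 libraries. RAD21 stood at 39.4 FPKM in siCTCF and 6.97 FPKM in siRAD21, against 19.8 to 88.5 FPKM (median 58.2) in the others. Each targeted gene was thus lowest in the library labelled for it, at differences of -2.56 for CTCF and 2.34 for RAD21. CTCF in siRAD21 was above the highest of the other 11 libraries, and RAD21 in siCTCF was below their median.

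Of the 15780 genes, 572 (3.62%) were at least 2-fold apart. Of these, 290 (1.84%) were higher and 282 (1.79%) lower in siCTCF. At least 4-fold apart were 25 genes, 16 of them higher and 9 lower in siCTCF. A further 13538 genes (85.8%) differed by less than 1.5-fold, and the median difference over all genes was -0.00078. By the same count, siFOXA1 and siFOXM1 were 883 genes apart (5.6%) and siEZH2 and siEED, which target subunits of one complex, 609 (3.86%). From siCTCF, the other 11 libraries were between 274 genes (siSMARCA4) and 1141 genes (siFOXA1) apart. From siRAD21, they were between 257 genes (siSMARCA4) and 1063 genes (siFOXA1) apart. At 572 genes apart, siCTCF and siRAD21 were not closer to each other than each was to siSMARCA4, siMALAT1, siPCAT1, siKDM1A or siBRCA1 (568 from siCTCF). The siRAD21 library was also nearer to siBRCA2 (417 genes), siControl2 (440) and siEED (492), and siCTCF to siEZH2 (442). Both were farther from siFOXA1 and siFOXM1. So was siCTCF from siBRCA2 (608), siControl2 (650) and siEED (666), and siRAD21 from siEZH2 (582). Near the limit, WNT7B (1.003, at 7.25 FPKM in siCTCF and 3.12 FPKM in siRAD21) was just inside and KLRG2 (0.997, at 5.37 and 2.19 FPKM in the same order) just outside. On the lower side, FANCI (-1.003) was inside and VSIG10 (-0.994) outside.

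**Figure D1:**
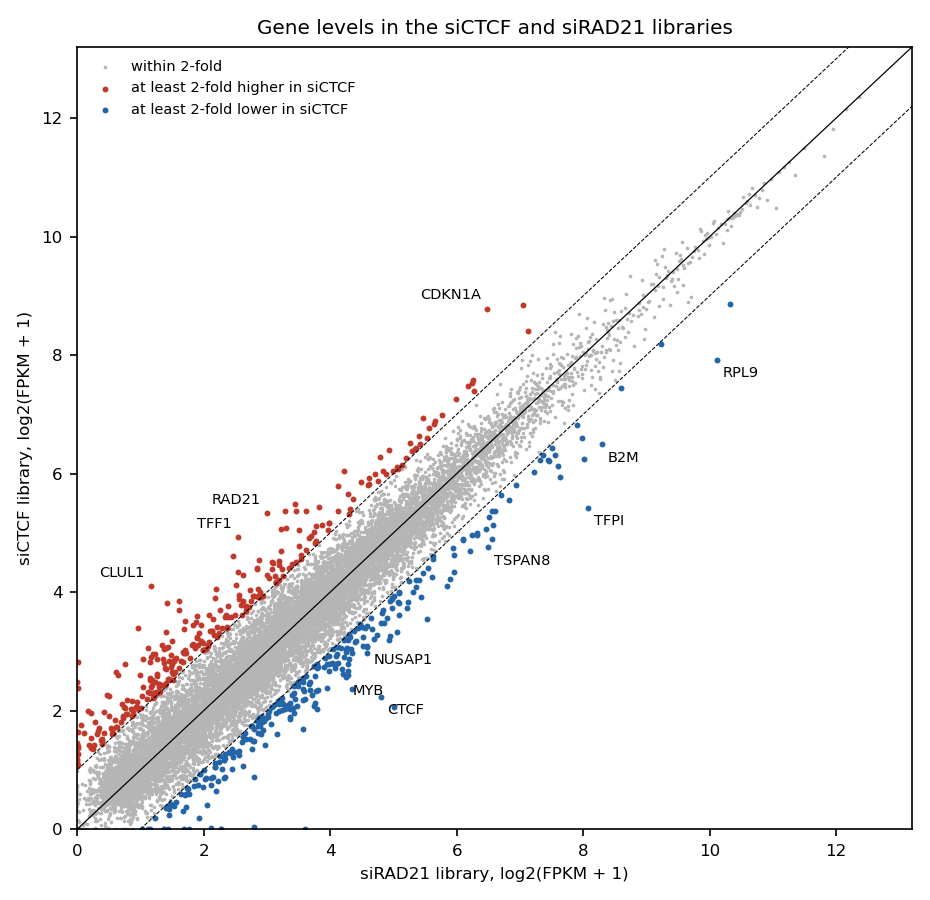
Level of each of 15780 genes in the siCTCF library (vertical axis) against the siRAD21 library (horizontal axis), both as log2(FPKM + 1). The solid line marks equal levels and the dashed lines 2-fold; 290 genes lie above (red) and 282 below (blue) the dashed lines, with CDKN1A and CLUL1 among those farthest above and TFPI, RPL9 and B2M among those farthest below.

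The position of each library relative to the other 11 put the 572 genes into 4 classes. In 150 genes (0.951%) siCTCF lay at least 1 log2 unit from the median of the other 11 and siRAD21 less than 0.5 from it. More of these were lower in siCTCF (96) than higher (54). The reverse arrangement, siRAD21 apart and siCTCF near the others, held for 83 genes (0.526%), of which 33 were lower in siCTCF (high in siRAD21) and 50 higher in siCTCF (low in siRAD21). In 113 genes (0.716%) the libraries lay on opposite sides of the median, each by at least 0.5. The remaining 226 (1.43%) were in none of these classes. The 11 libraries are other conditions and not replicates, so their spread is no error for either library. Beyond all other 12 libraries by at least 1 log2 unit, siCTCF had 28 genes (0.177%), 16 above and 12 below. siRAD21 had 15 such genes (0.0951%), 6 above and 9 below.

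**Figure D2:**
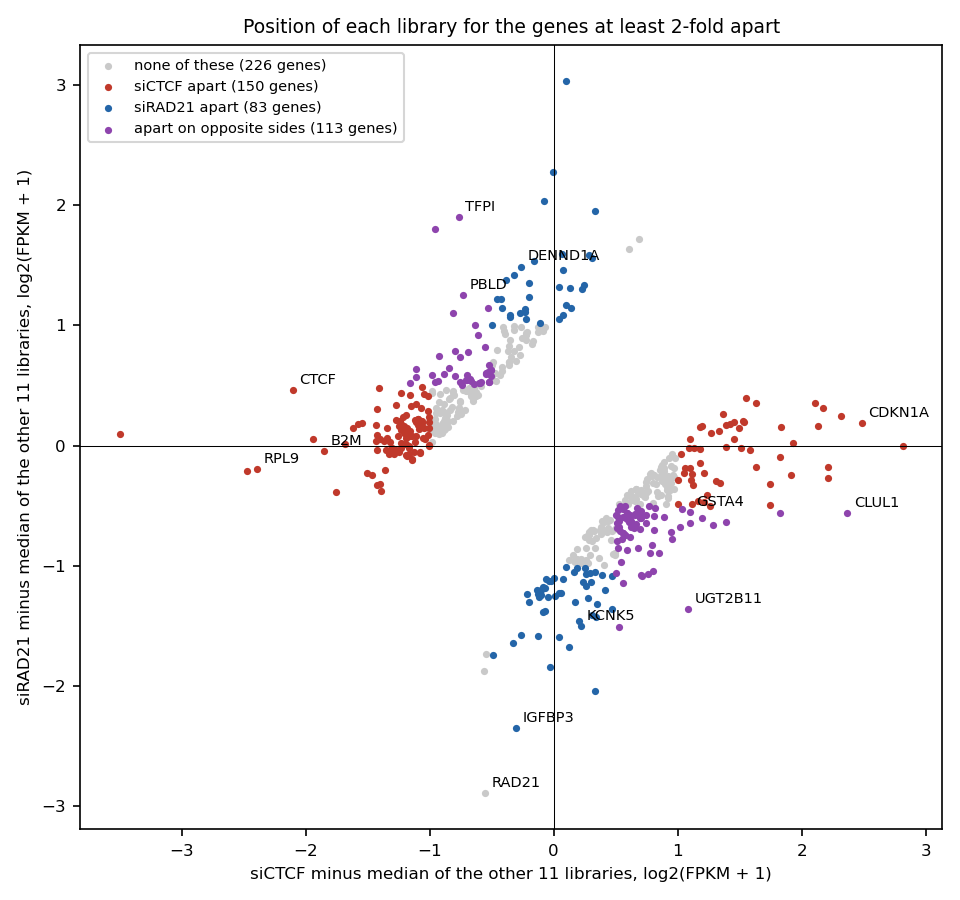
Each point is 1 of the 572 genes at least 2-fold apart, placed by the siCTCF level (horizontal axis) and the siRAD21 level (vertical axis) minus the median of the other 11 libraries, in log2(FPKM + 1). The 150 genes in red sit along the horizontal axis and the 83 in blue along the vertical axis, and the 113 in purple lie in the corners of opposite sign.

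Genes of mitosis were lower in siCTCF than in siRAD21 throughout the list of G2/M genes, which are transcribed late in the cell cycle and encode mitotic kinases, motors, kinetochore proteins and their regulators. All 35 members were below 0, and 26 (74.3%) were at least 2-fold lower, where 1.79% of all genes were. The list median was -1.19, against -0.00078 over all genes. The summed level was 176 FPKM in siCTCF and 425 FPKM in siRAD21. In the other libraries it ran from 91.6 FPKM in siFOXA1 to 1066 FPKM in siControl2, so siCTCF was the 4th lowest and siRAD21 the 8th lowest of the 13. The median member lay -1.09 from the median of the other 11 in siCTCF and 0.08 from it in siRAD21. In bulk RNA, fewer dividing cells and less of these transcripts per cell cannot be told apart.

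NUSAP1, a spindle microtubule protein, showed the greatest difference of the list, at 7.42 FPKM in siCTCF and 23.0 FPKM in siRAD21 (-1.51; other 11 libraries 4.17 to 61.2, median 21.6). CDC20, the activator of the anaphase-promoting complex, was at 8.22 FPKM in siCTCF and 24.9 FPKM in siRAD21 (-1.49; others up to 64.5, median 22.4). For both, siRAD21 was near the middle of the other libraries and siCTCF in their low part. PRC1, which bundles the central spindle, was at 7.56 FPKM in siCTCF and 23.0 FPKM in siRAD21 (-1.49). The hyaluronan receptor HMMR, which also binds spindle microtubules, was at 6.02 FPKM in siCTCF and 16.4 FPKM in siRAD21 (-1.31). Cyclin B2 (CCNB2) was at 5.39 FPKM in siCTCF and 14.7 FPKM in siRAD21 (-1.30). The kinases PLK1 (4.56 and 11.9 FPKM, in siCTCF and then siRAD21), BUB1 (4.17 and 10.8) and AURKA (4.34 and 9.76) gave differences of -1.21, -1.19 and -1.01. The smallest differences were those of KIF23 (-0.64) and of CDK1, the mitotic cyclin-dependent kinase, at 20.8 FPKM in siCTCF and 31.1 FPKM in siRAD21 (-0.56). The transcription factor FOXM1, which drives many of these genes, was at 4.83 FPKM in siCTCF and 9.42 FPKM in siRAD21 (-0.84).

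Many promoters of mitotic genes carry the cell cycle genes homology region (CHR), a short element bound by the DREAM and MYB-MuvB complexes. The letters TTTGAA or TTCGAA, read on either strand, were looked up in RefSeq promoters (build GRCh38.p14) from 250 bases before to 50 bases after each start. The 4 promoters below belong to the G2/M members PRC1, CDC20, HMMR and CCNB2 and show the 250 bases before the start, 5′ to 3′ on the gene's strand, with these letters in capitals.
CDC20 (GRCh38.p14, chr1:43358731-43358980, + strand): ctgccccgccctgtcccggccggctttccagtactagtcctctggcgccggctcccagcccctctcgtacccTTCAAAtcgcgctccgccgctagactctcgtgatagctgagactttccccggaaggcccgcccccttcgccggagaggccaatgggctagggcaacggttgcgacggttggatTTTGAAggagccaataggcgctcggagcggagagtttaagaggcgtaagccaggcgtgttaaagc
CCNB2 (GRCh38.p14, chr15:59104896-59105145, + strand): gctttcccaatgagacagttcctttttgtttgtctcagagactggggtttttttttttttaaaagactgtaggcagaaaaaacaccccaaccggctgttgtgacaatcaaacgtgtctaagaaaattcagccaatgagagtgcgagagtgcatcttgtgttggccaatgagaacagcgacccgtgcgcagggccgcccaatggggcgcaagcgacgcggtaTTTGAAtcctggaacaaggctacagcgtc
PRC1 (GRCh38.p14, chr15:90994536-90994785, - strand): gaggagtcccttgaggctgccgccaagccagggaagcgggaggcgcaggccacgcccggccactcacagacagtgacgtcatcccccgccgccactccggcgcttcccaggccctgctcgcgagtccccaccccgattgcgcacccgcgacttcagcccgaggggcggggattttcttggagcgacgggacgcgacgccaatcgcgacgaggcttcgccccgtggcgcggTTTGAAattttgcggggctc
HMMR (GRCh38.p14, chr5:163460382-163460631, + strand): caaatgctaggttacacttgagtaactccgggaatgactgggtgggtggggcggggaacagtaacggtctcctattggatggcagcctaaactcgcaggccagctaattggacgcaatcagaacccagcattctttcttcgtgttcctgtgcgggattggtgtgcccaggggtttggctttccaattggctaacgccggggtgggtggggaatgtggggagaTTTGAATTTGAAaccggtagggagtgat
In CCNB2 and PRC1 the letters begin 29 and 20 bases before the start, in HMMR 28 and 22 bases before it as an adjoining pair, and in CDC20 178 bases (on the opposite strand) and 65 bases before it. Of the 28 G2/M genes with a promoter in the table, 21 (75.0%) held the letters, against 1137 of 10287 (11.1%) over all genes compared. Among the genes at least 2-fold lower in siCTCF, 57 of 180 (31.7%) held them, and 40 of the 159 (25.2%) that are not on the G2/M list. These 159 still include genes of cell division, such as CDCA5, SMC4 and NCAPG, which held the letters, and PTTG1, which did not. Among those at least 2-fold higher, 11 of 165 (6.67%) did. The E2F letters TTTGGCGC or TTTCGCGC stood in 2.78% of the lower, 2.42% of the higher and 2.11% of all promoters. A match is a description of the sequence and no evidence of binding.

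Of 35 G1/S genes, which serve DNA replication, 30 were below 0 with a median of -0.54. At least 2-fold lower were 2, where 1.79% of all genes were, and 0 were higher. These were thymidine kinase TK1, at 13.004 FPKM in siCTCF and 33.1 FPKM in siRAD21 (-1.29), and the ribonucleotide reductase subunit RRM2, at 5.91 FPKM in siCTCF and 15.7 FPKM in siRAD21 (-1.27). TYMS, thymidylate synthase, had the highest difference, 0.41. The E2F letters stood in 10 of the 28 G1/S promoters (35.7%), and the CHR letters in 2 of them (7.14%). Homologous recombination and Fanconi genes had a median of -0.53, with 2 of 21 at least 2-fold lower, FANCG (-1.01) and FANCI (-1.003), and 0 higher. Over the 116 genes of the division, replication, repair and chromosome lists, 34 (29.3%) were at least 2-fold lower in siCTCF, against 1.79% of all genes, and 0 higher. The G2/M list supplied 26 of the 34, and the 81 genes outside it supplied 8. They make up 12.1% of the 282 lower genes.

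Among the cohesin genes, the targeted RAD21 alone was 2-fold apart. SMC1A was at 13.5 FPKM in siCTCF and 14.6 FPKM in siRAD21 (-0.11), SMC3 at 21.0 and 26.9 FPKM in that order (-0.35), and STAG2 at 29.2 and 41.7 FPKM (-0.50). The loader subunits NIPBL and MAU2 differed by -0.32 and -0.28. STAG1, the alternative to STAG2 in the ring and picked out after its values were seen, was at 12.3 FPKM in siCTCF and 17.0 FPKM in siRAD21. Both were above the range of 1.95 to 5.70 FPKM (median 4.22) in the other 11 libraries. Of 12 cohesin regulators, 2 were at least 2-fold lower in siCTCF, where 1.79% of all genes were. They were securin PTTG1 at 15.0 FPKM in siCTCF and 38.5 FPKM in siRAD21 (-1.30) and sororin CDCA5 at 2.55 and 6.70 FPKM (-1.12). Both act in sister chromatid cohesion and its release. The release factor WAPAL (-0.05) and the cohesin deacetylase HDAC8 (0.12) were nearly equal in the pair. The condensin and SMC5/6 list had a median of -0.60, with the condensin subunits SMC4 (7.29 FPKM in siCTCF, 18.2 FPKM in siRAD21, -1.21) and NCAPG (1.42 and 4.36 FPKM, -1.14) at least 2-fold lower. Of 14 other looping and insulator factors, among them YY1, ZNF143 and MAZ, 0 were 2-fold apart. Over all genes 3.62% were, and a list this short cannot show a difference from that share. The highest of these factors was PATZ1 (0.56) and the lowest the Mediator subunit MED1 (-0.49).

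Targets of p53, the stress-activated transcription factor, were mostly higher in siCTCF. Of 29 such genes, 24 were above 0, the median was 0.77, 9 (31.0%) were at least 2-fold higher, where 1.84% of all genes were, and 1 was 2-fold lower. The summed level was 1271 FPKM in siCTCF, the highest of the 13 libraries, and 712 FPKM in siRAD21, against 469 to 851 FPKM in the others. CDKN1A, the p21 inhibitor of cyclin-dependent kinases, was at 440 FPKM in siCTCF and 88.4 FPKM in siRAD21 (2.30). The other 11 libraries held 22.5 to 130 FPKM (median 77.6), so siCTCF lay far above all of them and siRAD21 within them. GDF15, a secreted stress cytokine, was at 40.1 FPKM in siCTCF and 8.78 FPKM in siRAD21 (2.07; others 4.13 to 30.6). The p53 ubiquitin ligase MDM2 was at 42.5 FPKM in siCTCF and 13.2 FPKM in siRAD21 (1.62; others 13.9 to 28.6). The kinase PLK3 was at 10.3 FPKM in siCTCF and 2.68 FPKM in siRAD21 (1.62; others 2.03 to 3.56). The remaining 2-fold members were PLK2 (1.38), cyclin G1 (CCNG1, 1.28), BTG2 (1.03), TRIAP1 (1.02) and the BH3-only death gene BBC3 (1.02). MDM2 and PLK2 were below all other 12 libraries in siRAD21, and MDM2 in siCTCF was above all of them. SESN1, a sestrin that restrains mTORC1, ran against the list, at 73.1 FPKM in siCTCF and 175 FPKM in siRAD21 (-1.25). The level of SESN1 in siRAD21 was the highest of the 13, and in siCTCF it was inside the range of 46.9 to 154 FPKM of the others. ZMAT3 (-0.42), TP53INP1 (-0.34), RRM2B (-0.27) and XPC (-0.24) were also below 0. TTTGAA or TTCGAA stood in 1 of 23 p53 target promoters (4.35%).

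Of 7 CDK inhibitor genes, 6 were below 0 and CDKN1A above it, and the median was -0.32. CDKN1A was 2-fold higher and CDKN2C, which inhibits CDK4 and CDK6, 2-fold lower, at 5.92 FPKM in siCTCF and 18.5 FPKM in siRAD21 (-1.49; others 5.90 to 16.6). Over all genes, 1.84% were 2-fold higher and 1.79% 2-fold lower. A list this short cannot show a difference from those shares. CDKN2A (-0.66), CDKN2D (-0.65) and CDKN1B (-0.32) were among those below 0.

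**Figure D3:**
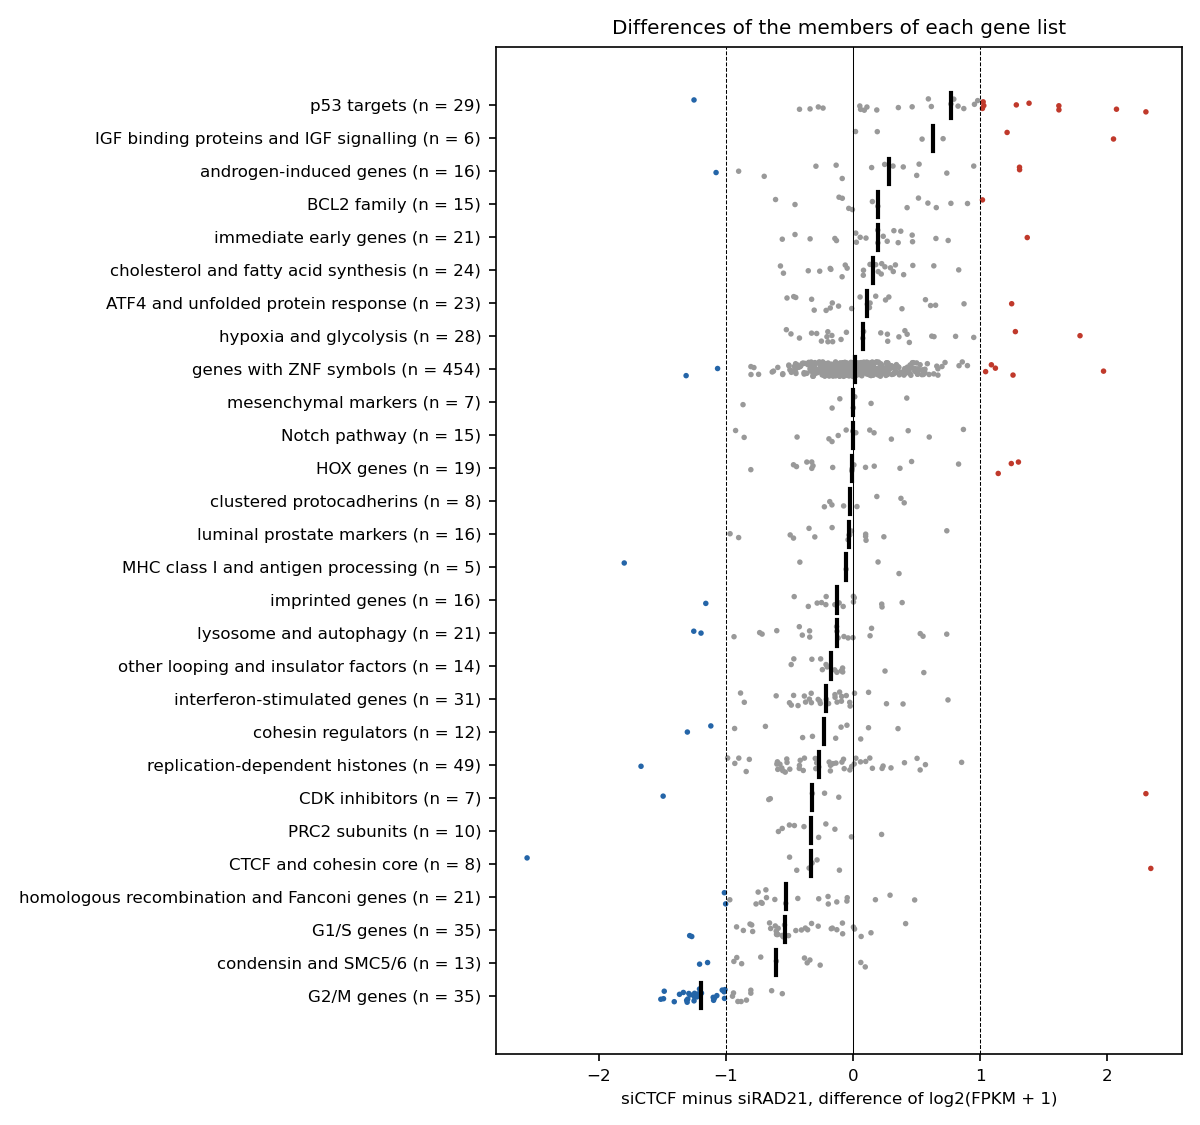
Difference siCTCF minus siRAD21 (horizontal axis, log2(FPKM + 1)) of every compared member of 28 gene lists, with list medians as black bars and the number of members in brackets; dashed lines mark 2-fold, red members are at least 2-fold higher and blue at least 2-fold lower in siCTCF. The G2/M list stands lowest with a median of -1.19 and the p53 targets highest with 0.77, while 454 genes with ZNF symbols centre on 0.01.

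CLUL1, which encodes a clusterin-like secreted protein, had the highest difference of the genes named by rule. It was at 16.1 FPKM in siCTCF and 1.25 FPKM in siRAD21 (2.93, a 12.9-fold ratio of FPKM). The other 11 libraries held 1.31 to 2.99 FPKM, so siCTCF stood 2.10 above all of them and siRAD21 just below them. The RefSeq promoter of CLUL1 is printed because it is made largely of 1 repeated stretch of 17 bases, CCCGCCCACCCGGCGTC, shown in capitals.
CLUL1 (GRCh38.p14, chr18:596738-596987, + strand): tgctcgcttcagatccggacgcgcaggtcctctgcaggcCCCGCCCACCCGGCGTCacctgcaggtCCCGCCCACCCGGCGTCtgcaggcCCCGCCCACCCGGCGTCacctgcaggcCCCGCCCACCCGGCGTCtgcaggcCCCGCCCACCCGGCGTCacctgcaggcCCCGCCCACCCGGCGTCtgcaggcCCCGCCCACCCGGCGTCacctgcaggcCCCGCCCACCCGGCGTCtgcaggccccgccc
It holds 8 copies of this stretch in 250 bases. Read on the gene's own strand, it was the only 1 of the 27305 promoters in the table with any copy. The opposite strand was not searched for this stretch. The table lists a second start for CLUL1, and the first was used. The repeat was noticed after the values were seen, and its part in the difference was not tested.

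In several other genes siCTCF lay far from all the other libraries. ZNF185, which encodes an actin-associated LIM-domain protein, was at 5.10 FPKM in siCTCF and 0.558 FPKM in siRAD21 (1.97), against at most 0.529 FPKM in the others. It met the expression limit only through its siCTCF level. Of the 572 genes 2-fold apart, 565 met the limit on the other 11 libraries alone, and 7, ZNF185 among them, did so only with siCTCF and siRAD21 counted. NUDT8, a nudix hydrolase, was at 40.4 FPKM in siCTCF and 9.96 FPKM in siRAD21 (1.92; others 6.45 to 16.2). FDXACB1 was at 8.97 FPKM in siCTCF and 1.65 FPKM in siRAD21 (1.91; others 1.09 to 2.05). SYCE3, a protein of the meiotic synaptonemal complex, was at 13.5 FPKM in siCTCF and 2.06 FPKM in siRAD21 (2.24; others 1.31 to 5.18). In these 4 genes siCTCF lay above all 12 other libraries by at least 1 log2 unit. HYPK, which in RefSeq shares its locus with a read-through of SERF2, was at 23.5 FPKM in siCTCF and 4.49 FPKM in siRAD21 (2.16; others 2.11 to 19.4).

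The trefoil peptide TFF1 was at 29.3 FPKM in siCTCF and 4.80 FPKM in siRAD21 (2.39). TFF1 was also high in siEED (29.6 FPKM), siFOXM1 (27.1), siEZH2 (24.6), siSMARCA4 (24.1) and siMALAT1 (20.3), so siCTCF did not stand alone. The other 11 libraries began at 1.11 FPKM and had a median of 7.55 FPKM. AGR2, an endoplasmic reticulum protein of mucin-secreting cells, was at 15.6 FPKM in siCTCF and 3.58 FPKM in siRAD21 (1.86; others 1.30 to 8.96). UGT2B11, of the family that conjugates steroids with glucuronic acid, was at 9.56 FPKM in siCTCF and 0.936 FPKM in siRAD21 (2.45; others 0.184 to 7.09). Its neighbours UGT2B7 (3.70 and 1.31 FPKM, in siCTCF and then siRAD21) and UGT2B28 (5.14 and 1.39 FPKM) were higher in siCTCF by 1.02 and 1.36. These UGT2B genes have similar sequences, and reads may be shared among them.

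B2M, the light chain of MHC class I, was at 89.1 FPKM in siCTCF and 313 FPKM in siRAD21 (-1.80). The other 11 libraries held 227 to 1057 FPKM (median 324), so siCTCF lay below all 12 other libraries and siRAD21 near their middle. B2M was 1 of 5 genes on a list of MHC class I and antigen processing, and the others were within 2-fold, from ERAP1 (-0.42) to PSMB10 (0.36). ERAP1, PSMB10 and NLRC5 (0.20) do not encode chains of MHC class I, so these values say little about its other chains. Of 31 interferon-stimulated genes 0 were 2-fold apart, where 3.62% of all genes were, and their median was -0.21. A count of 0 in a list of this length is not read as a difference from that share. CALM2, 1 of the calmodulin genes, was at 75.2 FPKM in siCTCF and 257 FPKM in siRAD21 (-1.76; others 137 to 281). DDHD2, a phospholipase, was at 3.06 FPKM in siCTCF and 12.8 FPKM in siRAD21 (-1.76; others at least 7.54). FAM63A was at 2.23 FPKM in siCTCF and 10.9 FPKM in siRAD21 (-1.88; others 4.96 to 9.72), and C19orf60 at 8.11 and 29.3 FPKM in that order (-1.74; others 21.3 to 30.0). In all 5 genes siCTCF was the lowest of the 13 libraries.

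RPL9, a large-subunit ribosomal protein gene, was at 241 FPKM in siCTCF and 1104 FPKM in siRAD21 (-2.19; others 760 to 1453). Ribosomal protein genes have many near-identical copies, so how its reads were divided is uncertain. SLC37A4, the glucose-6-phosphate transporter, was at 0.0273 FPKM in siCTCF and 5.95 FPKM in siRAD21 (-2.76), and the others ran from 0.034 to 7.70 FPKM. The plasminogen-like PLGLB2 was at 0.00779 FPKM in siCTCF and 3.34 FPKM in siRAD21 (-2.11; others 0.00431 to 6.36). Both ran from near 0 to several FPKM among the other libraries, and their values are uncertain.

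TFPI, the inhibitor of tissue factor in coagulation, had its highest level in siRAD21. It was at 41.7 FPKM in siCTCF and 269 FPKM in siRAD21 (-2.66), against 41.1 to 109 FPKM (median 71.6) in the others. siRAD21 thus lay above all of them while siCTCF lay at their low end. DENND1A, an exchange factor for RAB35, was at 16.2 FPKM in siCTCF and 56.6 FPKM in siRAD21 (-1.75; others 13.2 to 22.7). The relaxin gene RLN1 was at 5.33 FPKM in siCTCF and 18.5 FPKM in siRAD21 (-1.62; others 0.694 to 6.98). MYB, a proto-oncogene transcription factor, was at 4.90 FPKM in siCTCF and 18.1 FPKM in siRAD21 (-1.69; others 1.64 to 9.45). For DENND1A, RLN1 and MYB, siCTCF was inside the range of the other 11 libraries and siRAD21 above it. The tetraspanin TSPAN8 was at 26.0 FPKM in siCTCF and 88.9 FPKM in siRAD21 (-1.74), with others up to 107 FPKM. PBLD was at 4.16 FPKM in siCTCF and 19.4 FPKM in siRAD21 (-1.98; others 5.03 to 10.2). The beta-defensin DEFB132 was at 0.842 FPKM in siCTCF and 5.93 FPKM in siRAD21 (-1.91; others 1.16 to 3.77). In PBLD and DEFB132, siCTCF was below and siRAD21 above all 11 others.

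PTPRC, the leukocyte antigen CD45, was at 0.329 FPKM in siCTCF and 3.14 FPKM in siRAD21 (-1.64; others at most 1.10). The other immune markers compared, LYZ, CD8A and CD68, differed by 0.04, 0.18 and 0.40, and CD4 was at 0.0246 FPKM in siCTCF and 0.0766 FPKM in siRAD21. The summed level of the 4 immune markers was 17.5 FPKM in siCTCF and 17.0 FPKM in siRAD21, against 12.2 to 17.7 FPKM in the others. Of 7 mesenchymal, 4 basal and 4 neuroendocrine markers compared, 0 were 2-fold apart, where 3.62% of all genes were. Lists this short cannot show a difference from that share.

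Genes for which siRAD21 was below all 12 other libraries included IGFBP3, which binds insulin-like growth factors in serum and tissue. It was at 43.9 FPKM in siCTCF and 9.87 FPKM in siRAD21 (2.05), against 13.2 to 103 FPKM (median 54.5) in the others. IGFBP2, a related binding protein, was at 64.8 FPKM in siCTCF and 27.4 FPKM in siRAD21 (1.21; others 32.7 to 76.3). Against the median of the other 11, IGFBP2 lay 0.62 higher in siCTCF and -0.59 from it in siRAD21, so both libraries of the pair were away from it. All 6 genes of the insulin-like growth factor list were above 0, with a median of 0.63. Of them 2, IGFBP3 and IGFBP2, were 2-fold apart, where 3.62% of all genes were. The potassium channel genes KCNK5 (6.73 FPKM in siCTCF, 1.34 FPKM in siRAD21; others 4.03 to 10.1) and KCNG1 (7.21 and 1.58 FPKM; others 3.64 to 11.9) gave 1.72 and 1.67. ANKRD29 was at 6.34 FPKM in siCTCF and 1.06 FPKM in siRAD21 (1.83; others 2.24 to 5.39), and the cytokine gene IL36G at 5.04 and 0.979 FPKM (1.61; others 1.37 to 5.53). ANKRD29 in siCTCF was also above all 12 others.

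**Figure D4:**
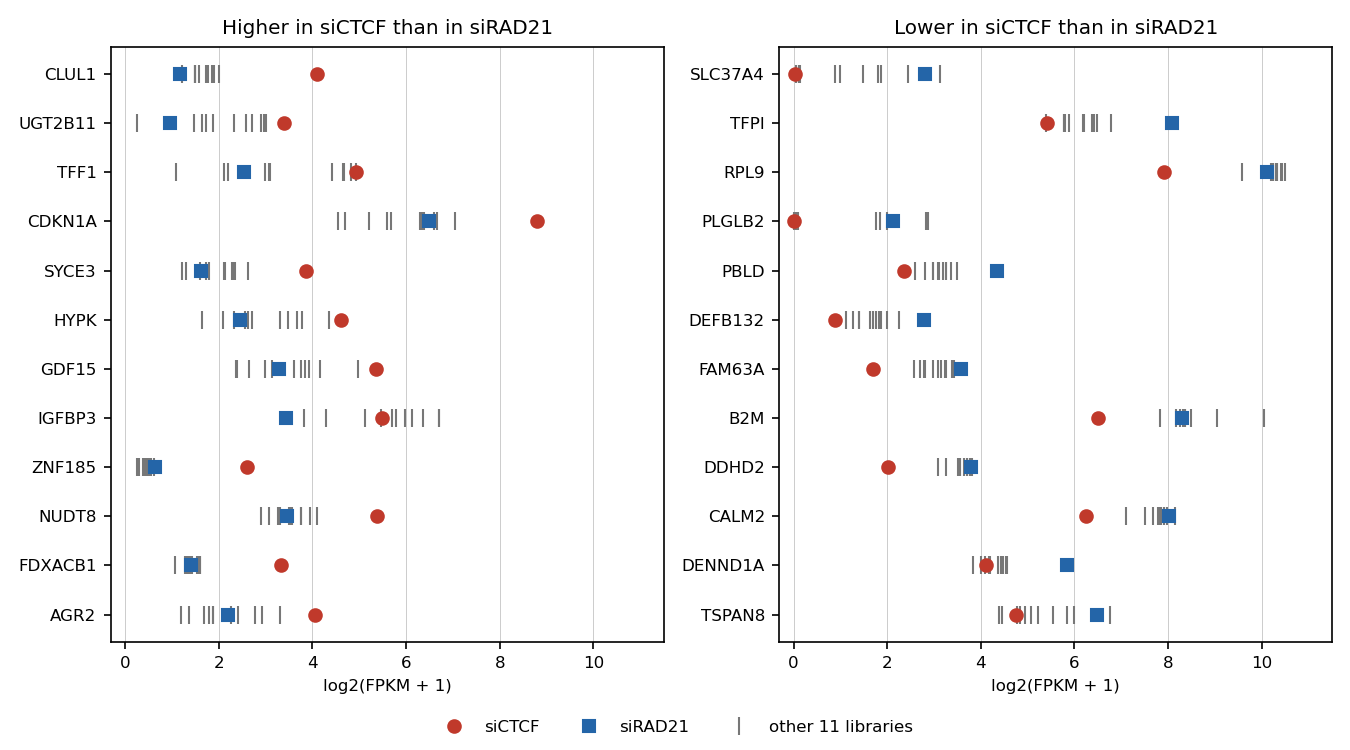
Levels (horizontal axis, log2(FPKM + 1)) of the 12 named genes with the largest positive (left panel) and negative (right panel) differences, in siCTCF (red circles), siRAD21 (blue squares) and the other 11 libraries (grey ticks). CLUL1, CDKN1A, ZNF185, NUDT8 and FDXACB1 are set apart by the siCTCF point, B2M, RPL9 and DDHD2 by a low siCTCF point, and TFPI and DENND1A by the siRAD21 point.

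HOX genes, whose clusters are divided by CTCF sites, had a median of -0.01. Of 19, 3 were at least 2-fold higher in siCTCF and 0 lower, where 1.84% of all genes were higher and 1.79% lower. HOXA13 was at 7.73 FPKM in siCTCF and 2.55 FPKM in siRAD21 (1.30; others 6.31 to 26.3). HOXA10 was at 29.1 FPKM in siCTCF and 11.7 FPKM in siRAD21 (1.24; others 13.8 to 32.0). HOXC13 was at 14.3 FPKM in siCTCF and 5.95 FPKM in siRAD21 (1.14; others 10.2 to 33.7). HOXA11, between HOXA10 and HOXA13 in its cluster, was at 2.94 FPKM in siCTCF and 1.21 FPKM in siRAD21 (0.83; others 2.35 to 14.4). In these 4 genes siRAD21 was the lowest of the 13 libraries and siCTCF inside the range of the others. At the other end of the list, HOXC5 was at 1.46 FPKM in siCTCF and 3.29 FPKM in siRAD21 (-0.80), and HOXA3, HOXA5, HOXA6 and HOXC4 gave between -0.36 and -0.32. HOXB13, a prostate lineage factor, was at 114 FPKM in siCTCF and 158 FPKM in siRAD21 (-0.47).

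Part of the CTCF consensus (CCA, any 2 bases, AG, any 2 bases, GGC, on either strand) was looked up in the same promoters. It stood in 304 of 10287 (2.96%), in 6 of 165 promoters of the higher genes (3.64%) and in 8 of 180 of the lower genes (4.44%). The HOXA10 promoter held it and is shown with the letters in capitals.
HOXA10 (GRCh38.p14, chr7:27179862-27180111, - strand): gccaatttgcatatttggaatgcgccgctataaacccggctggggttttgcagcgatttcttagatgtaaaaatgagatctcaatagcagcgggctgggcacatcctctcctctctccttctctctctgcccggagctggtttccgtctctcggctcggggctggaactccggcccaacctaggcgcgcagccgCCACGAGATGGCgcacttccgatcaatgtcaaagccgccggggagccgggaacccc
The match begins 56 bases before the first of the 2 listed starts. The other 5 higher genes with these letters were ADRA2A, GSTA4, IL1RN, MC1R and MT1X. The 8 lower genes were CENPF, DEPDC1, ECT2, FNIP2, GPER, NUF2, SMYD3 and TK1. No match in a window says only that these letters are absent there.

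Imprinted genes and clustered protocadherins, which CTCF is known to organise, are set beside the 3.62% of all genes that were 2-fold apart, and with lists this short a count of 0 or 1 is not read as a difference from that share. Of 16 imprinted genes, 1 was 2-fold apart: MEST, at 9.53 FPKM in siCTCF and 22.5 FPKM in siRAD21 (-1.16; others 12.5 to 28.4), with siCTCF the lowest of the 13. The list median was -0.13, and SNRPN was at 175 FPKM in both libraries. Of 35 clustered protocadherins, 27 were under the expression limit and the 8 compared lay between -0.23 (PCDHGA8) and 0.40 (PCDHGC3). PCDHGC3 was at 7.30 FPKM in siCTCF and 5.29 FPKM in siRAD21, both above the highest of the others, 5.05 FPKM. Of 49 replication-dependent histone genes, 35 were below 0 and 1 was 2-fold lower, HIST1H3H, at 17.6 FPKM in siCTCF and 58.1 FPKM in siRAD21 (-1.67). Of 454 genes with ZNF symbols, 5 were 2-fold higher and 2 lower in siCTCF, where 1.84% of all genes were higher and 1.79% lower. The highest were ZNF185, which met the expression limit only through its siCTCF level, and ZNF703 (1.26). The 2 lower were ZNF680 (-1.31) and ZNF330 (-1.07).

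Of 16 androgen-induced genes compared, 2 were 2-fold higher and 1 lower in siCTCF, where 1.84% of all genes were higher and 1.79% lower. Their median was 0.28. The kallikrein gene KLK4 was at 7.09 FPKM in siCTCF and 2.27 FPKM in siRAD21 (1.31; others 5.98 to 26.5), and siRAD21 was the lowest of the 13 libraries. SLC45A3, which encodes prostein, was at 15.5 FPKM in siCTCF and 5.64 FPKM in siRAD21 (1.31; others 1.55 to 20.7). STEAP2, a metalloreductase, was at 112 FPKM in siCTCF and 237 FPKM in siRAD21 (-1.08; others 83.2 to 223). TMPRSS2, a membrane serine protease, was at 22.5 FPKM in siCTCF and 42.8 FPKM in siRAD21 (-0.90). Of 16 luminal markers, 0 were 2-fold apart, where 3.62% of all genes were, and a list this short cannot show a difference from that share. CDH1, the epithelial cadherin, came closest to 2-fold, at 88.5 FPKM in siCTCF and 174 FPKM in siRAD21 (-0.97).

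Metabolic and stress lists were close to 0, with single members apart. Over all genes 3.62% were 2-fold apart, and counts this small in lists this short are not read as a difference from that share. The carbonic anhydrase CA12 was at 33.0 FPKM in siCTCF and 8.86 FPKM in siRAD21 (1.78; others 10.4 to 28.4) and hexokinase HK2 at 6.93 and 2.27 FPKM (1.28; others 1.41 to 6.10), in a hypoxia and glycolysis list with a median of 0.08 over 28 genes. For CA12 and HK2, siCTCF was above all 12 other libraries. MYC was at 57.1 FPKM in siCTCF and 21.5 FPKM in siRAD21 (1.37; others 18.7 to 66.6), the only 2-fold member of 21 immediate early genes. DDIT4, an mTORC1 inhibitor induced by stress, was at 90.5 FPKM in siCTCF and 37.5 FPKM in siRAD21 (1.25) and alone among 23 ATF4 and unfolded protein response genes. Of 24 cholesterol and fatty acid synthesis genes and of 15 Notch pathway genes, 0 were 2-fold apart, with medians of 0.16 and 0.00. In the BCL2 family BBC3 was the only 2-fold member of 15. The lysosomal genes NPC2 (37.4 FPKM in siCTCF, 90.6 FPKM in siRAD21, -1.25) and LAMP2 (25.9 and 60.7 FPKM, -1.20) were lower in siCTCF, in a list of 21 with a median of -0.13. Both were below all 12 other libraries in siCTCF and above all 12 in siRAD21. Of 10 PRC2 subunit genes 0 were 2-fold apart, with a median of -0.33.

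Since CTCF and cohesin shape domains that hold several genes, the order of genes along the chromosomes was taken from RefSeq for 12960 compared genes, 428 of them 2-fold apart. A 2-fold neighbour stood beside 62 of the 428 (14.5%) and beside 766 of the 12532 others (6.11%). In 32 adjacent pairs both genes were 2-fold apart. In 20 pairs they shared a direction and in 12 they did not. LTB4R and LTB4R2, ANG and RNASE4, and PAQR4 and PKMYT1 overlap in RefSeq, so how reads were divided within these pairs is uncertain.

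The pairs of opposite direction, all picked after their values were seen, included the neighbours LIN7A and PPFIA2, both of which encode scaffold proteins of synapses. LIN7A was at 25.0 FPKM in siCTCF and 8.31 FPKM in siRAD21 (1.48; others 6.43 to 16.2). PPFIA2 was at 32.4 FPKM in siCTCF and 87.6 FPKM in siRAD21 (-1.41; others 54.8 to 132). In siCTCF LIN7A was thus the highest and PPFIA2 the lowest of the 13 libraries. The glutathione transferase gene GSTA4 was at 54.2 FPKM in siCTCF and 16.5 FPKM in siRAD21 (1.66; others 18.9 to 29.7). Its neighbour ICK, a kinase of cilia, was at 24.8 FPKM in siCTCF and 73.4 FPKM in siRAD21 (-1.53; others 17.7 to 62.3). For this pair siRAD21 was lowest for GSTA4 and highest for ICK among the 13 libraries, and siCTCF was highest for GSTA4. CPNE4 was at 6.50 FPKM in siCTCF and 1.24 FPKM in siRAD21 (1.74), and its neighbour ACPP, which encodes prostatic acid phosphatase, at 78.1 and 186 FPKM (-1.24; others 27.6 to 103). ARMC10 (20.2 FPKM in siCTCF, 9.22 FPKM in siRAD21, 1.06) adjoined NAPEPLD (45.7 and 113 FPKM, -1.28). Securin PTTG1 adjoined the p53 target CCNG1, at 153 FPKM in siCTCF and 62.2 FPKM in siRAD21 (1.28).

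Pairs with a shared direction, also picked after their values were seen, included DNAJC12 (183 FPKM in siCTCF, 74.9 FPKM in siRAD21, 1.28) with the deacetylase gene SIRT1 (31.3 and 12.5 FPKM, 1.26). NXT1, an mRNA export factor, differed by 1.29, and the zinc finger gene GZF1 beside it was at 40.5 FPKM in siCTCF and 11.2 FPKM in siRAD21 (1.76). The ubiquitin ligase MID1 was at 14.1 FPKM in siCTCF and 42.4 FPKM in siRAD21 (-1.53; others 11.6 to 19.2), and CLCN4 beside it differed by -1.06. NUSAP1 and OIP5 (-1.23), a factor for centromere assembly, were neighbours on the lower side. Across chromosomes, the share of genes 2-fold apart ran from 1.46% of 961 on chromosome 19 to 6.02% of 465 on chromosome 4 among chromosomes 1 to 22 and X.

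**Figure D5:**
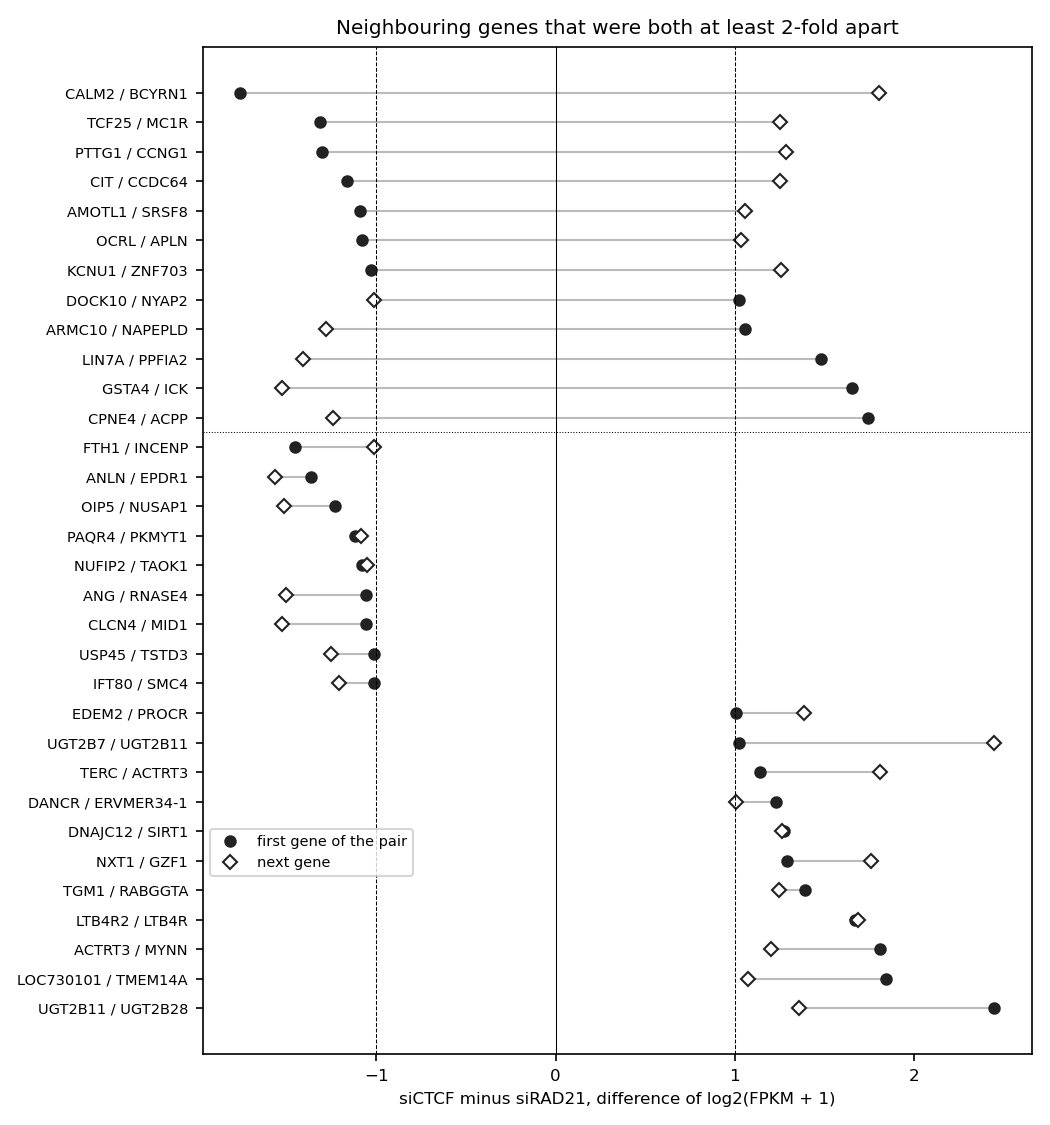
Difference siCTCF minus siRAD21 (horizontal axis, log2(FPKM + 1)) of both genes in the 32 adjacent pairs in which both were at least 2-fold apart, with the first gene filled and the next open. The 12 pairs above the dotted line differed in opposite directions, with CALM2 and BCYRN1 the farthest apart, and the 20 below it in the same direction.

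By kind of entry, protein-coding genes were 65.2% of the 290 higher and 75.9% of the 282 lower genes, against 77.0% of all compared. Entries with only an assembly or Ensembl identifier were 26.9% of the higher and 19.5% of the lower genes, against 15.6% of all. Long noncoding RNAs were 3.45% of the higher, 1.42% of the lower and 2.40% of all genes.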

How the data were processed

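RNA was measured in 13 libraries, 1 per condition, so p-values and a spread between replicates could not be computed. Reads were aligned with TopHat and quantified with Cufflinks on hg19, per the submitters' processing notes, which give no versions. The authors deposited log2 values per gene entry (22613 in each library), read here as log2(FPKM + 0.1) from the floor of the values. The sorted values of the libraries differed by at most 0.0562, so the deposited log2 values already shared a common distribution, which removes differences in total RNA between libraries. Strand handling and read depth are not stated in these sources. FPKM was recovered as 2 to the power of the value minus 0.1 and set to 0 below 1e-09. Genes with a mean of at least 0.5 FPKM over the 13 libraries were kept, and 759 small RNA entries were left out, being shorter than the fragments sequenced. These were recognised by symbol, so the vault RNA VTRNA1-1 and the noncoding RNA BCYRN1 stayed among the genes compared. Differences of log2(FPKM + 1) were computed with Python 3.11.15, numpy 2.4.6 and pandas 2.3.3, and the counting steps were tested on simulated data. The gene PCAT1 was not analysed here, and some genes that the rule names are not reported.

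The named genes are the 2 targets, the 12 largest protein-coding differences in each direction, the 6 largest in each direction with only 1 library of the pair apart, and the 2 highest and 2 lowest members of each of 31 gene lists, of which the text gives a selection. Members and lists were chosen with earlier results of these data known. Other genes are named as members of a list or were chosen after their values were seen. RefSeq (GRCh38.p14) gave names for 12979 genes (1068 by an older symbol), gene order and promoters, and the first listed start was used. Its coordinates were not mixed with those of hg19. Alternatives were another pseudocount, filters, scalings and fold limits, small RNA entries kept, and the other 10 knockdowns without the control as the comparison set.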

Additional observations from a re-analysis of the deposited data

How the results depend on the processing

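With 1 library per condition no result has a replicate error, and depth is unknown, so no counting interval can be given. No paired analysis was possible because each condition had 1 library, and no replicate could be left out. The counts of genes depended on the limits. With a pseudocount of 0.1, which gives weight to low genes, 1277 genes were 2-fold apart (655 higher and 622 lower in siCTCF), siCTCF stood apart in 336 and siRAD21 in 214, and siFOXA1 and siFOXM1 were 1669 and siEZH2 and siEED 1273 genes apart. With a mean of at least 5 FPKM, 338 genes were apart, 143 of them higher in siCTCF, siRAD21 stood apart in 48, and the other pairs were 508 and 343 apart in the same order. With small RNA entries kept, siRAD21 stood apart in 172. At 1.5-fold, 2242 genes were apart (1132 higher and 1110 lower), and the other pairs were 2874 and 2215 apart. Leaving out the 11 entries under 0.01 FPKM in at least 3 libraries and over 2 FPKM in at least 3 others, which include neither SLC37A4 nor PLGLB2, an alternative chosen after seeing the data, left 568 (288 higher and 280 lower). Of the 145 named genes, 63 were 2-fold apart, and 15 of these were under the limit of 5 FPKM and had no value there. Most of the alternatives could hardly move a gene back under 2-fold by their construction, so these genes have no test of stability here. A further 8 named genes passed 2-fold with a pseudocount of 0.1. Of 276 recomputed list medians, 272 lay within 0.25 of the reported value and 4 did not. Among medians at least 0.1 from 0, 0 changed sign. Sign changes of medians closer to 0 than that were not counted.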
